A study of Rattus norvegicus with 11 samples.

Results

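The S100 calcium-binding proteins were described in alveolar epithelial cells of rat lung. Members were all probe sets annotated to exactly 1 gene whose symbol is S100a1, S100a4, S100a6, S100a8, S100a9, S100a10, S100b or S100g. Of these 8 genes, 7 were measured, by 12 of the 8740 probe sets tested, and S100a6 had no such probe set. S100a1 had 4 probe sets, S100b and S100g had 2 each, and the other members had 1. The measured genes were 7 of the 4736 with a probe set of their own.

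Total RNA was hybridised to 11 single-colour arrays in 3 groups: 4 arrays of freshly isolated type I (TI) cells at day 0, 3 arrays of type II (TII) cells cultured to day 7, and 4 arrays of freshly isolated TII cells at day 0. Type I cells are the thin cells across which gas is exchanged, and type II cells make surfactant and can give rise to type I cells. The series title names the comparison of the 2 cell types, and the culture arm sets cultured TII cells beside both. All the labels give 1 organism, and rat strain, sex, age, culture medium and number of animals are not given in the sources used here. One label field reads isolated TI cells for all 11 samples, so groups were taken from the RNA description. The labels do not tie arrays to animals, and p-values therefore measure only how far these arrays spread, which may be technical.

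S100 proteins are small calcium sensors built from a pair of EF-hand loops, the helix-loop-helix fold that holds a calcium ion. Most form dimers that open a binding face for partner proteins when calcium rises, and some are also released from cells and act on the receptors RAGE (Ager) and Tlr4. S100g, also called calbindin-D9k, differs in that it works as a calcium buffer and carrier and is a classical vitamin D responsive gene of the intestine. S100a10 differs in that its loops no longer bind calcium, and it joins Anxa2 as a tetramer at the plasma membrane.

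Most of the genes lie on chromosome 2 beside a relative: S100a8 lies next to S100a9, S100a1 lies next to S100a13, S100a4 lies between S100a3 and S100a5, and S100a10 lies next to S100a11. S100b lies between Dip2a and Prmt2 on chromosome 20, and S100g lies between Ctps2 and Syap1 on chromosome X. The 250 bases before the start site are shown for the 2 chromosome 2 members whose signal was higher in fresh TI cells and whose promoter was in the RefSeq table, from GRCr8. They are S100a4 at chr2:178388279-178388528 on the plus strand and S100a9 at chr2:178490623-178490872 on the minus strand, and capitals mark TATAAA.
S100a4: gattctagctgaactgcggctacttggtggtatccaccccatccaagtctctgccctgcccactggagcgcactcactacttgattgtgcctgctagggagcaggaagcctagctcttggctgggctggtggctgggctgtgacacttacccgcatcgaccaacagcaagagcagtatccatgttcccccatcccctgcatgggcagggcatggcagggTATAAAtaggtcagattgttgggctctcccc
S100a9: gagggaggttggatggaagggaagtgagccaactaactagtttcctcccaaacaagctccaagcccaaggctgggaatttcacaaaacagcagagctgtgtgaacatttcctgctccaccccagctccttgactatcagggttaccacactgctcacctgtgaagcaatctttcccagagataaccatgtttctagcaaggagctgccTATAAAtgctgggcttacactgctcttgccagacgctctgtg
The letters TATAAA, searched on both strands, stood on the gene's own strand at bases -31 to -26 before the S100a4 start and at bases -42 to -37 before the S100a9 start. They were in 12.9% of the 33469 rat promoter windows of this length. Letters of the C/EBP type, TTNNGNAA on either strand, matched S100a9 once, at bases -173 to -166, and were in 37.2% of windows. AP-1 letters, TGANTCA on either strand, were in 6.34% of windows and in neither of these promoters. The S100b window held none of the 3 motifs. S100a1, S100a8, S100a10 and S100g were not matched in the promoter table. These matches describe letters only.

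Signals were log2 values, and the arrays' medians lay between 5.43 and 5.51. Pearson's r between arrays of a group was 0.978 to 0.996 for fresh TI, 0.986 to 0.993 for cultured TII and 0.995 to 0.998 for fresh TII. Fresh TI array 4 stood apart: 99 of 8740 probe sets were at least 1 log2 unit below the mean of the other 3 fresh TI arrays, and 1 was at least 1 unit above it. Its Sftpa1, Lyz2 and Sftpc signals were lower by that measure (-2.07, -1.66 and -1.56), while the type I genes Pdpn and Aqp5 were not (0.04 and -0.04). Marker sums set the 2 fresh groups apart in the direction of their labels. Summed over 10 type I markers, log2 signal was 13.74 to 13.86 in fresh TI, 11.75 to 12.35 in cultured TII and 11.61 to 11.80 in fresh TII. Over 11 type II markers it was 12.63 to 14.07 in fresh TI, 11.81 to 11.89 in cultured TII and 15.26 to 15.33 in fresh TII. The cultured TII arrays thus lay below every fresh TI array on type II markers. Signals are relative levels of each probe set and were not compared between probe sets.

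In fresh TI against fresh TII cells, S100a4, S100a8, S100a9, S100a10 and 1 of the 2 S100b probe sets were higher and S100g was lower. At an adjusted p under 0.05 in limma, 7 of the 12 probe sets were called, 5 higher and 2 lower, against a background of 54.7% of the array called in either direction (34.3% up and 20.4% down). Up and down were 2996 and 1787 as deposited, 2252 and 2005 after arrays were matched in standard deviation, and 1337 and 1334 without probe sets dimmer than the median. In cultured against fresh TII cells, S100a10 was higher and S100g, S100a1 and 1 of the S100b probe sets were lower. Here 8 of the 12 were called, 1 higher and 7 lower, against 33.4% for the array (19.1% up and 14.3% down). In fresh TI against cultured TII cells each of the 12 passed, with 11 up and S100a10 down, against 59.9% for the array (35.7% up and 24.2% down). Scaling moved that split too, with 3124 probe sets higher and 2111 lower as deposited, against 2294 higher and 2323 lower after arrays were matched in standard deviation.

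Groups of arrays did not overlap for 7 of the 12 probe sets between fresh TI and fresh TII cells, against 50.7% of all probe sets. They did not overlap for 9 of 12 between cultured and fresh TII cells, against 43.3%, and for 11 of 12 between fresh TI and cultured TII cells, against 57.3%. The median difference of the 12 was 0.10, -0.43 and 0.91 log2 units in these comparisons in turn, beside 0.12, -0.01 and 0.13 over all probe sets. S100a1 alone gave 4 of the 12. With each of the 7 genes counted once, by its brightest probe set, the medians were 0.73, -0.11 and 0.89, beside 0.111, -0.00517 and 0.107 over all genes.

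**Figure D1:**
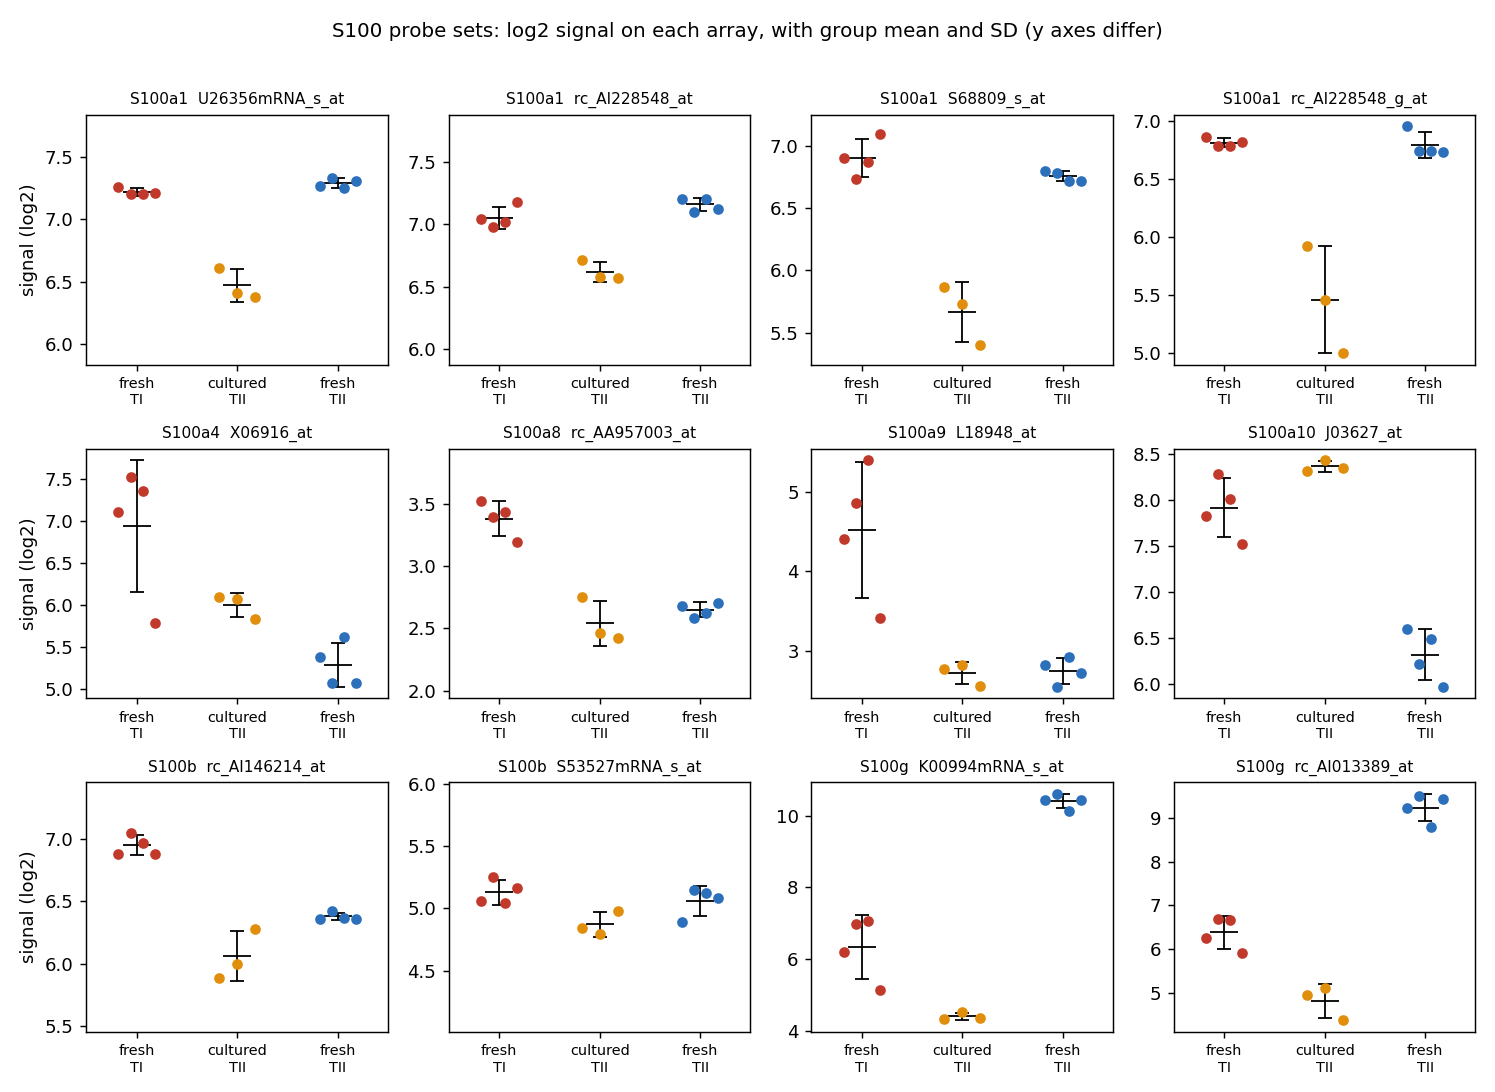
Log2 signal of each S100 probe set on each array, in fresh TI, cultured TII and fresh TII cells, with bars at group means. On K00994mRNA_s_at, S100g was 4.32 to 4.52 in cultured TII cells and 10.14 to 10.62 in fresh TII cells, while S100a10 was 8.31 to 8.43 in cultured TII cells and 5.97 to 6.60 in fresh TII cells.

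S100g, the vitamin D responsive calcium carrier, had the greatest differences among the members. On its probe set K00994mRNA_s_at, the log2 signal was 6.19, 6.98, 7.07 and 5.14 on the 4 fresh TI arrays, 4.32, 4.52 and 4.36 on the 3 cultured TII arrays, and 10.44, 10.62, 10.14 and 10.45 on the 4 fresh TII arrays. No group overlapped another: fresh TII arrays were all high, cultured TII arrays all low, and fresh TI arrays lay between with array 4 the lowest of them. Fresh TI was lower than fresh TII by 16.7-fold (log2 difference -4.06 ± 0.32 SE, limma adjusted p = 5.08e-07). Cultured TII was lower than fresh TII by 64.5-fold (-6.01 ± 0.35, adjusted p = 2.45e-08). Fresh TI was higher than cultured TII by 1.95 ± 0.35 log2 units (adjusted p = 0.000482). In bulk RNA, fewer cells of a type and less RNA per cell cannot be told apart.

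The other S100g probe set, rc_AI013389_at, read 6.26, 6.69, 6.67 and 5.91 in fresh TI, 4.94, 5.10 and 4.36 in cultured TII, and 9.24, 9.52, 8.80 and 9.44 in fresh TII cells. It gave the same order of groups with smaller differences. Fresh TI minus fresh TII was -2.87 ± 0.21 (7.31-fold lower, adjusted p = 2.29e-07), and cultured minus fresh TII was -4.45 ± 0.23 (21.9-fold lower, adjusted p = 6.86e-09). Without fresh TI array 4, fresh TI minus fresh TII was -3.66 and -2.71 on the 2 probe sets. S100g thus stayed the member with the largest difference from fresh TII in both comparisons.

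Type II markers moved with S100g. All 11 of the 16 listed type II markers that were measured were lower in fresh TI than in fresh TII cells, against 21.2% of all genes by their brightest probe set, among them the secretory phospholipase Pla2g1b (-4.29), the mucin Muc1 (-4.03) and the surfactant protein Sftpb (-3.27). For the markers Nkx2-1 and Cebpa, the other probe set was not called there (-0.15 and 0.08). That of Cebpa was also not called in cultured against fresh TII (-0.01). In cultured against fresh TII cells, 10 of the 11 were lower and 1 was higher, against 14.0% and 20.5% of all genes, with Sftpc at -7.97. Within the fresh TI group, array 4 had the lowest sum of these markers (12.63 against 13.52 to 14.07) and the lowest S100g signal. Airway epithelium markers gave mixed directions, with 3 higher and 4 lower of 8 measured (12 listed) in fresh TI against fresh TII. The shares over all genes were 33.0% and 21.2%, and the airway median was -0.05, beside 0.111 over all genes. The log2 sum of the airway markers was 9.40 to 9.45 in fresh TI, 9.15 to 9.72 in cultured TII and 12.09 to 12.35 in fresh TII. The sum was carried by Cyp2f4, Scgb1a1 and Aldh1a1 (-4.07, -3.31 and -3.09 in fresh TI minus fresh TII), while Krt14, Krt5 and Muc5ac were higher in fresh TI (0.60, 0.45 and 0.34). The part of these cell markers in the S100g result was not tested.

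Across the 11 arrays, the genes whose pattern was most like S100g on K00994mRNA_s_at were Pla2g1b (Pearson's r = 0.996), Sftpb (0.993) and the class II chaperone Cd74 (0.993). On rc_AI013389_at they were the early growth response factor Egr1 (0.995), the natriuretic peptide receptor Npr1 (0.993) and the nuclear receptor Nr4a1 (0.990). The nearest genes thus differed between the 2 S100g probe sets. All points share the 3 groups, so r mostly follows group means and is given as a description. It says nothing of the size of a difference. Npr1 had group means of only 5.66 in fresh TI, 5.41 in cultured TII and 6.06 in fresh TII.

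S100a8 and S100a9 form the heterodimer calprotectin, which is abundant in neutrophils and monocytes and binds calcium, zinc and manganese. S100a9 read 4.41, 4.86, 5.4 and 3.41 in fresh TI, 2.77, 2.82 and 2.56 in cultured TII, and 2.82, 2.55, 2.93 and 2.72 in fresh TII cells. Every fresh TI array was above every TII array, and array 4 was the lowest fresh TI array, while the cultured and fresh TII arrays overlapped. Fresh TI was higher than fresh TII by 3.40-fold (log2 difference 1.77 ± 0.31, adjusted p = 0.000467) and higher than cultured TII by 1.80 ± 0.33 (adjusted p = 0.000578). Cultured minus fresh TII was -0.04 (adjusted p = 0.959).

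S100a8 read 3.52, 3.39, 3.43 and 3.19 in fresh TI, 2.75, 2.46 and 2.42 in cultured TII, and 2.68, 2.58, 2.62 and 2.70 in fresh TII cells. Its groups were arranged as those of S100a9, over a narrower range. Fresh TI was higher than fresh TII by 1.66-fold (0.73 ± 0.09, adjusted p = 2.75e-05) and higher than cultured TII by 0.84 ± 0.10 (adjusted p = 1.54e-05), and cultured minus fresh TII was -0.11 (adjusted p = 0.479). Both genes were near the bottom of the scale in TII cells: 28.7% of probe sets were dimmer than S100a9 in fresh TI, 7.67% in cultured TII and 7.72% in fresh TII. For S100a8 the share was 12.7% in fresh TI, 6.10% in cultured TII and 6.88% in fresh TII. No detection calls were used here, so whether these low signals lie above background is unknown.

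Most myeloid markers called beside S100a8 and S100a9 were higher in fresh TI than in fresh TII cells, while Lcn2, Lyz2 and Cd14 were lower. Of 9 measured neutrophil markers (22 listed), 5 were higher and 1 was lower in fresh TI than in fresh TII cells, against 33.0% and 21.2% of all genes. Those with the greatest differences were the iron-siderophore binder Lcn2, lower by 4.26, the chemokine receptor Cxcr1 at 0.44 and the collagenase Mmp8 at 0.36. Their log2 sum was 8.47 to 8.56 in fresh TI, 8.26 to 9.67 in cultured TII and 10.07 to 10.60 in fresh TII, and Lcn2, which epithelium also makes, carried most of it in fresh TII. Of 10 measured macrophage markers (23 listed), 4 were higher and 2 were lower in fresh TI, against the same shares. At an unadjusted p under 0.05, 7 were higher and 2 lower. Those called with the greatest differences were Lyz2 at -0.85, C1qb at 0.47 and Cd14 at -0.46. Medians were 0.19 for the neutrophil list and 0.36 for the macrophage list, beside 0.111 over all genes. Without Lyz2, which is also a type II gene, the log2 sum of the macrophage markers was 9.38 to 9.54 in fresh TI, 9.18 to 9.62 in cultured TII and 9.18 to 9.30 in fresh TII. Fresh TI array 4, the lowest for S100a9, had the highest macrophage sum of its group, but within a narrow range (9.54 against 9.38 to 9.47). Lyz2, left out of that sum, was at -1.66 on array 4 against the mean of the other 3. By the same measure Cxcl2 was at -1.71 and Il1b at -1.04. No marker can read 0 on this scale. The part of blood cells in these 2 results was not tested.

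**Figure D2:**
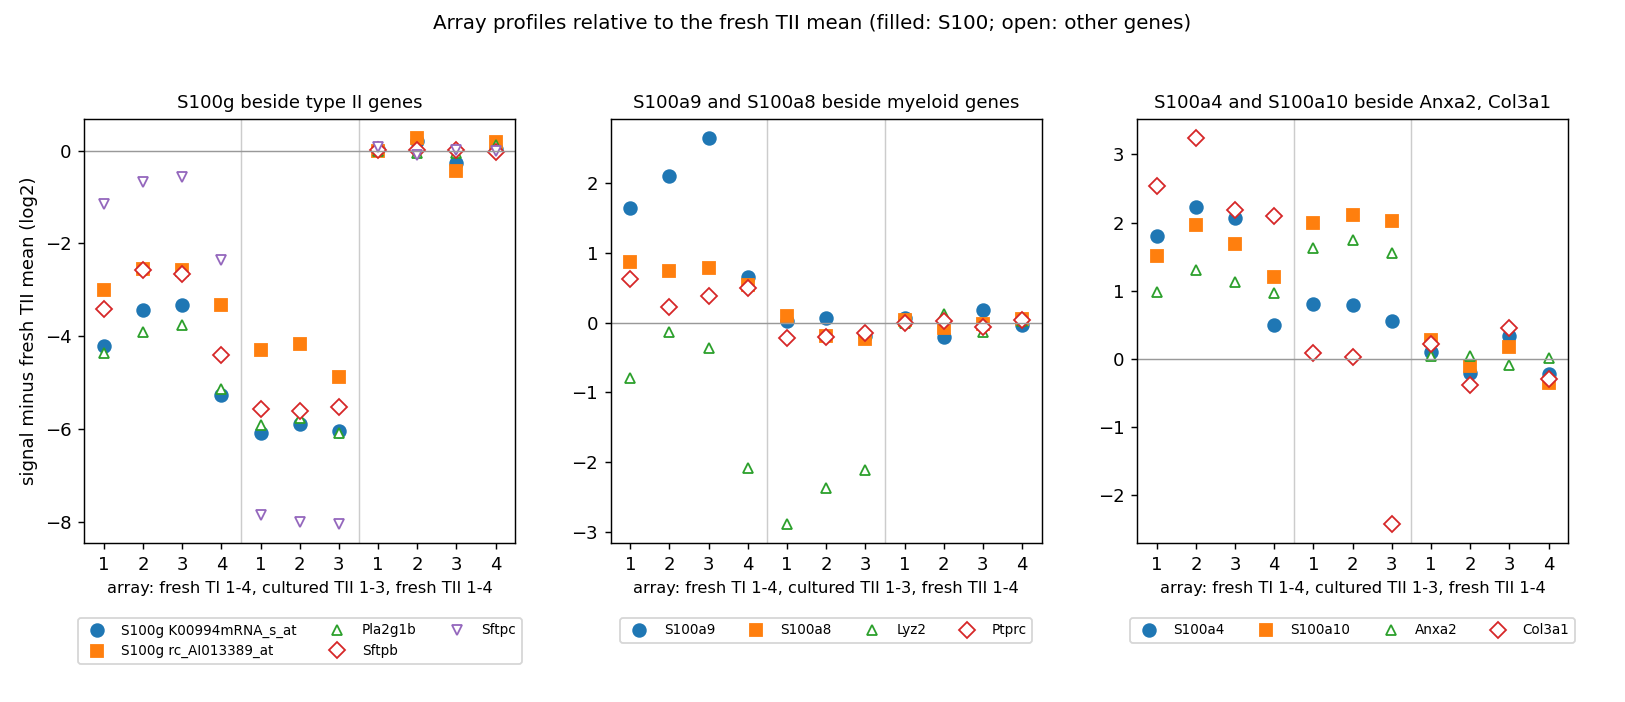
Log2 signal minus the fresh TII mean on each array for S100 genes (filled) and other genes (open), in fresh TI, cultured TII and fresh TII cells. On fresh TI array 4, S100g, S100a9 and S100a4 were below the other 3 fresh TI arrays, as was Lyz2.

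The genes most like S100a9 over the 11 arrays were the class I gene RT1-S3 (r = 0.971), the regulator of G protein signalling Rgs18 (0.965) and the interferon-induced Mx2 (0.964). Rgs18 was dim and moved little, with group means of 2.82 in fresh TI, 2.54 in cultured TII and 2.51 in fresh TII. S100a8 had group means spanning less than 1 log2 unit, so no like genes are named for it.

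S100a10 is the calcium-insensitive partner of Anxa2, and the complex gathers Plat and Plg at the cell surface. Its log2 signal was 7.82, 8.28, 8.01 and 7.52 in fresh TI, 8.31, 8.43 and 8.34 in cultured TII, and 6.60, 6.22, 6.49 and 5.97 in fresh TII cells. Cultured TII arrays were all high, fresh TII arrays all low, and the fresh TI arrays lay just below the cultured ones. Cultured TII was higher than fresh TII by 4.12-fold (2.04 ± 0.17, adjusted p = 7.94e-07), and fresh TI was higher than fresh TII by 3.01-fold (1.59 ± 0.16, adjusted p = 4.26e-06). Fresh TI minus cultured TII was -0.45 ± 0.17 (adjusted p = 0.0357). That last call was lost without fresh TI array 4 (-0.33, adjusted p = 0.0887), and also without fresh TI array 1 or any 1 of the cultured arrays.

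Anxa2 was higher in the same comparisons, by 1.10 ± 0.08 in fresh TI and by 1.64 ± 0.09 in cultured TII over fresh TII cells (adjusted p = 3.52e-07 and 1.58e-08). Fresh TI minus cultured TII was -0.54 for Anxa2. The plasminogen activator Plat was higher in fresh TI than in fresh TII by 0.58, but was not called in cultured against fresh TII (0.01, adjusted p = 0.953). Plat was dim, with 13.8% of probe sets dimmer. Plg was at 0.44 in fresh TI minus fresh TII and was not called in cultured minus fresh TII (-0.11, adjusted p = 0.688). The genes most like S100a10 over the 11 arrays were the basement membrane collagen Col4a5 (r = 0.983), the myosin light chain Myl12a (0.979) and the elastic fibre gene Fbln5 (0.976).

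S100a4 binds non-muscle myosin and is widely used as a marker of fibroblasts and motile cells. The values were 7.10, 7.52, 7.35 and 5.79 in fresh TI, 6.10, 6.07 and 5.84 in cultured TII, and 5.38, 5.08, 5.62 and 5.07 in fresh TII cells. Fresh TI arrays 1 to 3 were the highest of all, while array 4 fell below every cultured TII array. Fresh TI was higher than fresh TII by 3.14-fold (1.65 ± 0.29, adjusted p = 0.000575), and by 2.03 ± 0.14 without array 4. Against cultured TII, fresh TI was higher by 0.93 ± 0.32 (adjusted p = 0.0230) with array 4 and by 1.31 without it (adjusted p = 1.92e-05), and the call was lost without fresh TI array 1, 2 or 3 or cultured array 3.

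Cultured TII arrays did not overlap fresh TII arrays for S100a4, but the difference of 0.72 ± 0.32 was not called (adjusted p = 0.108). Without fresh TI array 4, whose spread enters the shared error, the same difference was called (adjusted p = 0.00134). Fibroblast and smooth muscle markers were 10 higher and none lower of 20 in fresh TI against fresh TII (0 lower at an unadjusted p under 0.05; median 0.26), against 33.0% and 21.2% of all genes. They included the cross-linking enzyme Lox at 3.48 (other probe sets 0.75, 0.94 and 1.23), Col3a1 at 2.52 and Fbln5 at 2.33. In cultured against fresh TII, 8 were higher and 1 was lower, against 20.5% and 14.0%, with the actin-binding Tagln at 5.03. Their log2 sum was 11.30 to 12.12 in fresh TI, 12.11 to 12.51 in cultured TII and 10.37 to 10.73 in fresh TII. Array 4 was the lowest fresh TI array here too, but closely, at 11.30 against 11.47 on array 3. On array 4 minus the mean of the other fresh TI arrays, S100a4 was at -1.53. Of the markers named, Fbln5 was lowest on array 1 (6.79, against 6.85 on array 4). The part of these markers in the S100a4 result was not tested. The genes most like S100a4 were Tpm3 (r = 0.935), a tropomyosin, Dpysl2 (0.928) and Vgll3 (0.915).

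S100a1, best known from heart and skeletal muscle, where it acts on calcium release channels and the pump Atp2a2, was lower after culture on all 4 of its probe sets. On U26356mRNA_s_at the signal was 7.26, 7.20, 7.20 and 7.21 in fresh TI, 6.61, 6.41 and 6.38 in cultured TII, and 7.27, 7.33, 7.25 and 7.31 in fresh TII cells. Cultured arrays were all below both fresh groups. The differences of cultured minus fresh TII were -0.82, -0.54, -1.09 and -1.33 on the 4 probe sets, which are 1.45-fold to 2.52-fold lower, and all 4 were called. Fresh TI minus cultured TII was 0.75, 0.43, 1.23 and 1.35, also all called.

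Between fresh TI and fresh TII cells none of the 4 S100a1 probe sets was called in limma: the differences were -0.07, -0.10, 0.14 and 0.02, with adjusted p from 0.208 to 0.924, and 0 passed an unadjusted p under 0.05. The lowest cultured reading was 5.0, on rc_AI228548_g_at, where the 3 cultured arrays were 5.92, 5.46 and 5.0 and the fresh TII arrays 6.95, 6.74, 6.74 and 6.73. Of 12 striated muscle markers, 2 were higher and none lower in cultured against fresh TII, beside 20.5% higher and 14.0% lower over all genes, and the median was -0.09. At an unadjusted p under 0.05, 3 were lower. Acta1 was at 2.09 and Tnnt2 at 0.53, and the log2 sum of the list was 9.23 to 9.56 in cultured TII and 8.91 to 9.0 in fresh TII. The 3′ minus 5′ difference of the beta-actin control probe sets was 0.21 to 0.42 in fresh TI, -0.33 to -0.08 in cultured TII and 0.32 to 0.43 in fresh TII. For the GAPDH controls it was 0.41 to 0.69, 0.30 to 0.45 and 0.47 to 0.57 in turn, so cultured TII overlapped fresh TI there. The part of RNA quality in the culture results was not tested.

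The genes most like S100a1 on S68809_s_at were the cytochrome Cyp4b1 (r = 0.983), the lipid-transfer gene Sec14l3 (0.981) and the vesicle protein Vamp2 (0.970). On rc_AI228548_g_at they were the tetraspanin Tspan8 (0.989), Cpsf7 (0.976) and the dipeptidase Dpep1 (0.974). No gene was shared between these 2 sets of 3.

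S100b is the main S100 of astrocytes and Schwann cells and a ligand of RAGE. Its probe set rc_AI146214_at read 6.88, 7.05, 6.97 and 6.88 in fresh TI, 5.89, 6.0 and 6.28 in cultured TII, and 6.36, 6.42, 6.37 and 6.36 in fresh TII cells. Fresh TI arrays were all high, cultured arrays all low, and no group overlapped another. Fresh TI was higher than fresh TII by 1.48-fold (0.57 ± 0.08, adjusted p = 0.000123) and higher than cultured TII by 0.89 ± 0.09 (adjusted p = 5.01e-06). Cultured minus fresh TII was -0.32 ± 0.09 (adjusted p = 0.0142), a call lost without cultured array 1 (adjusted p = 0.0800) or 2 (0.0601).

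The other S100b probe set, S53527mRNA_s_at, read 5.06, 5.25, 5.04 and 5.16 in fresh TI, 4.84, 4.79 and 4.98 in cultured TII, and 4.89, 5.15, 5.12 and 5.08 in fresh TII cells. It was not called between fresh TI and fresh TII (0.07 ± 0.08, adjusted p = 0.490) or between cultured and fresh TII (-0.19, adjusted p = 0.113). Fresh TI was higher than cultured TII by 0.26 ± 0.09 (adjusted p = 0.0213). The 2 probe sets therefore disagreed on the fresh cells. Glial and nerve markers were 7 higher and none lower (0 lower at an unadjusted p under 0.05) of 9 measured and 12 listed in fresh TI against fresh TII, median 0.26, against 33.0% and 21.2% of all genes. The myelin gene Pmp22 was at 1.51, Prph at 0.46 and Nefl at 0.37, but another probe set gave 0.31 for Pmp22, and another gave 0.13 for Nefl (not called). Their log2 sum was 10.75 to 10.87 in fresh TI, 10.23 to 10.63 in cultured TII and 10.11 to 10.19 in fresh TII. The part of these markers in the S100b result was not tested.

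**Figure D3:**
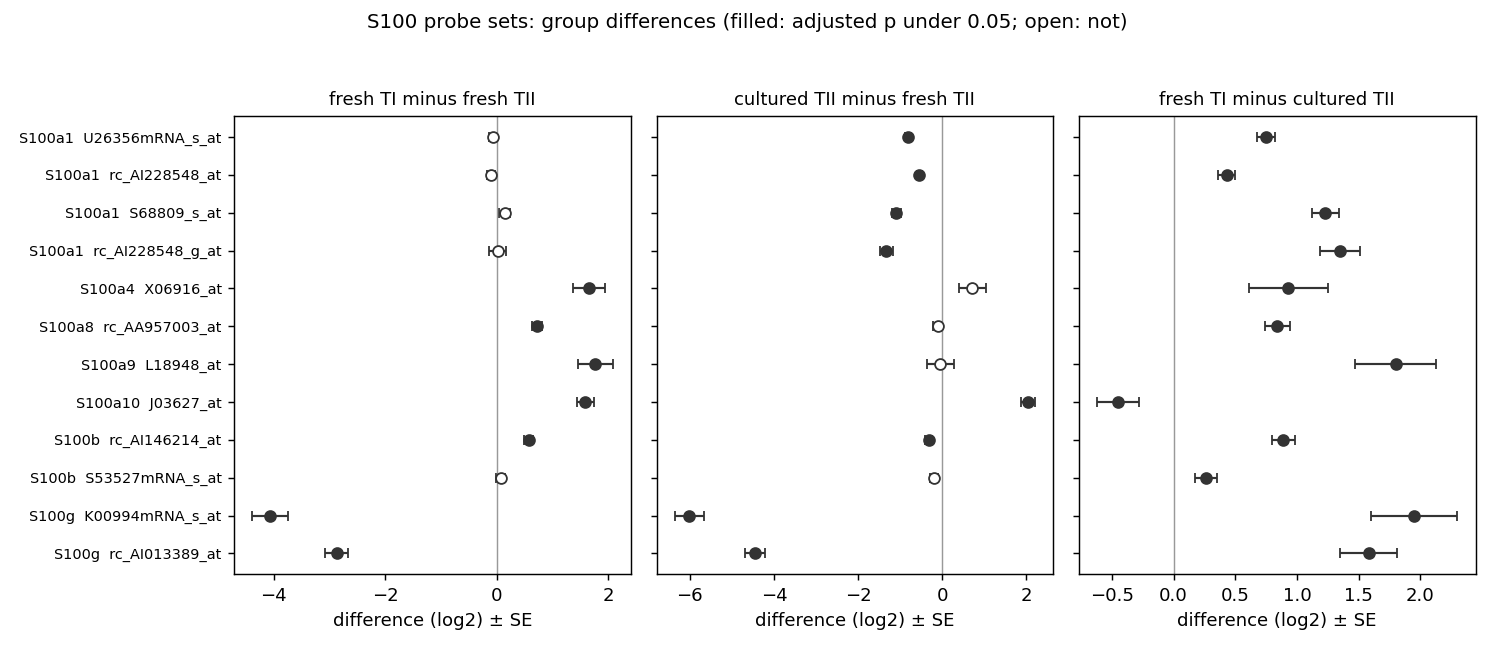
Log2 difference with its standard error for each S100 probe set in the 3 comparisons, from limma; filled points passed an adjusted p under 0.05. S100g lies far to the negative side in fresh TI minus fresh TII and in cultured minus fresh TII, and S100a10 is the only member on the positive side of cultured minus fresh TII that was called.

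Among receptors of secreted S100 proteins, Ager was much higher in fresh TI cells. RAGE is a type I cell membrane protein of the lung, and its difference was 3.08 ± 0.12 in fresh TI against fresh TII (adjusted p = 1.11e-09), 0.94 ± 0.13 in cultured against fresh TII (9.61e-05) and 2.13 ± 0.13 in fresh TI against cultured TII (6.78e-08). Bsg, a receptor for S100a9, was higher than in fresh TII by 1.0 in fresh TI and 0.97 in cultured TII. Tlr4 was not called in fresh TI against fresh TII (0.14, adjusted p = 0.621) or in cultured against fresh TII (0.61, 0.0838). Of the 6 measured receptors, 3 were higher and 1 was lower in fresh TI than in fresh TII, against 33.0% and 21.2% of all genes by their brightest probe set. In cultured against fresh TII 2 were higher and 1 was lower, against 20.5% and 14.0%, and in fresh TI against cultured TII 1 was higher and none lower (0 lower at an unadjusted p under 0.05), against 34.2% and 25.8%. The receptors' medians were 0.35, 0.41 and 0.13 in these comparisons. The gene lower than in fresh TII was the adhesion molecule Alcam (-0.37 and -0.60), whose other probe sets gave 0.14 and 0.13 in fresh TI, neither called.

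Known binding partners of S100 proteins, among them Plat and Plg, which are secreted, included 17 measured genes, of which 10 were higher and 3 were lower in fresh TI than in fresh TII (median 0.30, against 0.111 over all genes). The shares over all genes were those given for the receptors. The annexin Anxa5 was at 1.14, Anxa2 at 1.10 and Anxa1 at 0.73, the last not called on its other probe set (0.46). Atp2a2 was at -1.38 on its brightest probe set, while its other probe sets gave 0.01, -0.07 and 0.30. In cultured against fresh TII 5 partners were higher and 3 were lower, led by Tpm1 at 2.47 (other probe sets 0.03 to 2.31), Anxa5 at 1.76, Anxa2 at 1.64 and Anxa4 at 0.83. Anxa11, Myh9, Cacybp and Ahnak had no probe set of their own. In fresh TI against cultured TII 6 were higher and 4 were lower. The medians were 0.06 in cultured against fresh TII and 0.08 in fresh TI against cultured TII.

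**Figure D4:**
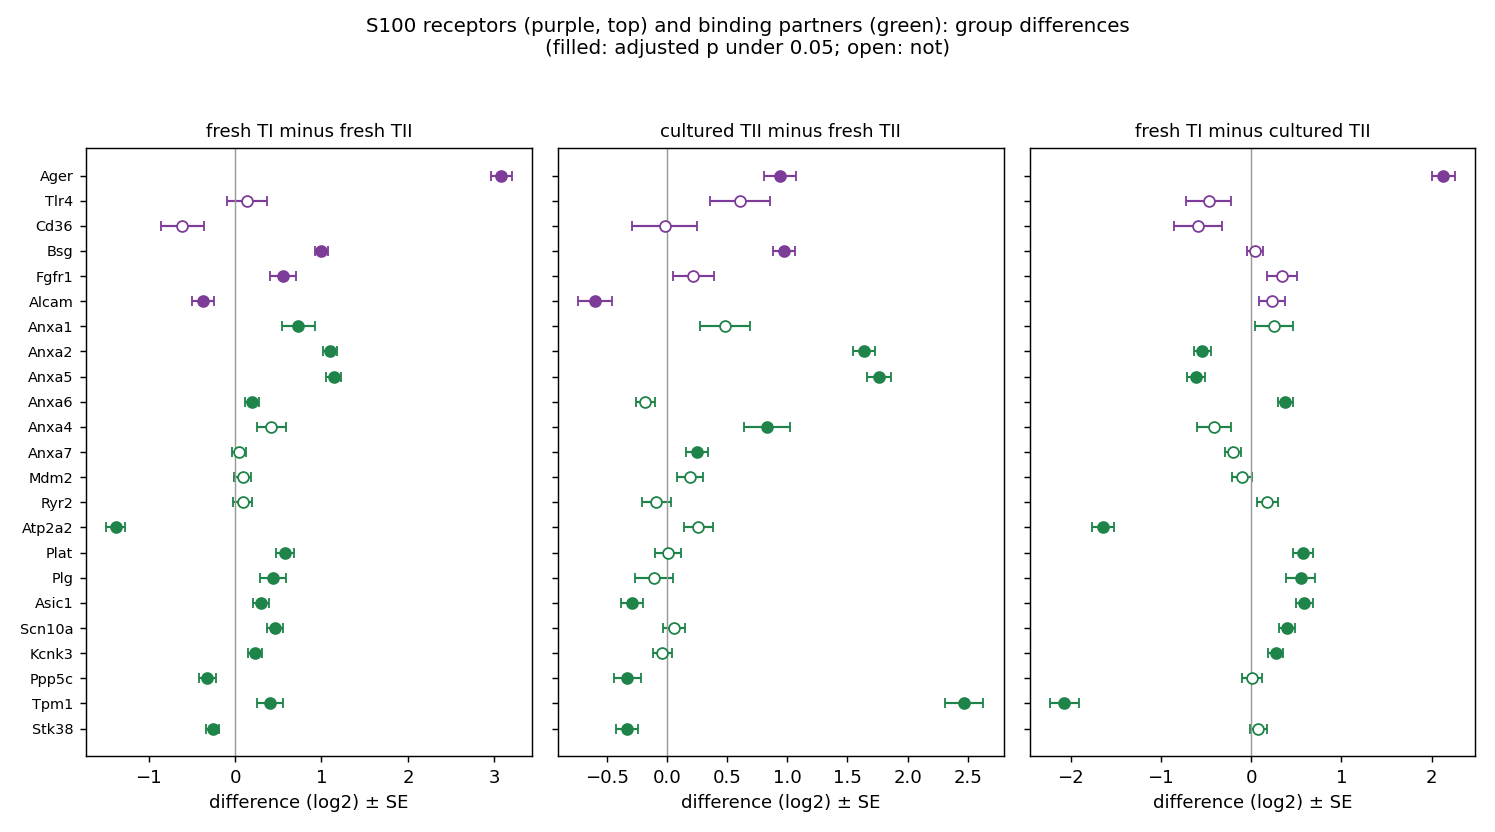
Log2 difference with its standard error for S100 receptors (purple) and partners (green) in the 3 comparisons, filled where adjusted p was under 0.05. Ager was highest in fresh TI cells, and Anxa2 was higher in both fresh TI and cultured TII cells than in fresh TII cells.

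Genes that RAGE and Tlr4 are known to induce through NF-kB moved in both directions. Their medians were -0.22 in fresh TI against fresh TII, -0.77 in cultured against fresh TII and 0.80 in fresh TI against cultured TII, beside 0.111, -0.00517 and 0.107 over all genes. Of 9 measured, 2 were higher in fresh TI than in fresh TII, the cytokine Il1b at 1.58 and the adhesion molecule Icam1 at 1.08. These counts stand beside 33.0% higher and 21.2% lower over all genes. The 2 lower ones were Il6 at -2.52 (-0.41 on its other probe set) and the NF-kB inhibitor Nfkbia at -1.06. After culture 3 were higher and 5 were lower than in fresh TII, against 20.5% and 14.0%, with the chemokine Ccl2 at 3.09 and Cxcl2, Nfkbia and Il6 at -3.03, -2.86 and -1.84. The other Il6 probe set was at -0.54 there. In fresh TI against cultured TII 5 were higher and 3 were lower, against 34.2% and 25.8%, with Ccl2 at -3.35 and Il1b at 2.84.

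Other EF-hand genes had medians of 0.15, 0.02 and 0.20 in the same 3 comparisons. They were 11 higher and none lower of 26 in fresh TI against fresh TII (0 lower at an unadjusted p under 0.05), beside 33.0% higher and 21.2% lower over all genes. Named by the brightest probe set, they included the calpain Capn2 at 2.48, its small subunit Capns1 at 0.50, sorcin (Sri) at 0.46 and calmodulin Calm2 at 0.44. In cultured against fresh TII 8 were higher and 3 were lower, beside 20.5% and 14.0%, and the endoplasmic reticulum proteins Rcn2 and Calu were at 2.04 and 1.76, with Capn2 at 1.86 and Sri at 0.95. The probe sets of the matrix protein Sparc disagreed: the brightest gave 0.37 in fresh TI minus fresh TII and -0.43 in cultured minus fresh TII, and the other 3 gave 4.02, 4.22 and 3.51 in fresh TI and 3.61, 4.10 and 3.24 in culture. In fresh TI against cultured TII 9 were higher and 5 were lower, beside 34.2% and 25.8%, with Rcn2 at -2.09 and Calu at -1.47. S100g, a member of the same fold, was opposite in sign to Capn2 in both comparisons with fresh TII.

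Calcium transport and vitamin D genes were 9 higher and 4 lower of 20 in fresh TI against fresh TII, beside 33.0% and 21.2% of all genes, with medians of 0.18 there, -0.06 in cultured against fresh TII and 0.35 in fresh TI against cultured TII. The calcium pump Atp2a3 was at -1.72, and the pump Atp2a2 was at -1.38 on its brightest probe set only. The vitamin D receptor Vdr was at 0.38 ± 0.06 (adjusted p = 0.000239). After culture none was higher in limma (1 higher at an unadjusted p under 0.05) and 2 were lower than in fresh TII, beside 20.5% and 14.0%, Atp2a3 at -2.41 and the calcium release channel Itpr2 at -0.78. Vdr was at 0.01 there (adjusted p = 0.955), and S100g was at -6.01. The part of vitamin D signalling in the S100g result was not tested. In fresh TI against cultured TII 12 were higher and 2 were lower, beside 34.2% and 25.8%. Atp2a3 was among the higher at 0.68. Atp2a2 was among the lower at -1.64, while its other probe sets gave -0.02, -0.24 and 0.24.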

How the data were processed

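Total RNA of 11 rat cell samples was measured on single-colour Affymetrix arrays. The authors deposited log2 values in a table of 8799 probe sets, and the background correction, normalization and summary behind them are not given in the sources used here. That the values are log2 was read from their range, 1.37 to 13.16. The 59 control probe sets were left out, and 7006 of the rest are annotated to 1 gene. No filter on dim probe sets was used.

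One limma fit (limma 3.58.1, R 4.3.3) with 3 group means on all 8740 probe sets gave the log2 differences, standard errors and Benjamini-Hochberg adjusted p-values, called under 0.05. Errors after means are SE unless stated. For gene lists, the brightest probe set stands for a gene. Sums of markers are log2 of summed linear values. Members and gene lists were chosen with earlier results of these data known. Like genes are the 3 with the highest r for members whose group means span at least 1 log2 unit. From each list, up to 4 called genes (3 markers) with the greatest difference are named. Plat, Plg, Ptprc, Krt5, Krt14, Muc5ac, Sparc, Nkx2-1 and Cebpa were named or plotted after their values were seen. Promoters are RefSeq's, on GRCr8. The fit was tested on simulated data. Alternatives were other scalings, filters, eBayes settings, a replicate block, and leaving out each array.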

Additional observations from a re-analysis of the deposited data

Results flagged for a closer look

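In the groups of 4 arrays, 24 combinations of probe set and group were screened for an array far from the others, and 2 were picked out; chance picks out about 1 in 20 groups. For S100a1 on rc_AI228548_g_at, fresh TII array 1 was the highest, with a gap of 0.946 of the group's range. For S100b on rc_AI146214_at, fresh TII array 2 was the highest, with a gap of 0.902 of the range. Both ranges were narrow, at 0.22 and 0.06 log2 units in turn, so the gaps were small in signal.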

How the results depend on the processing

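The number of member probe sets called stayed within 1.5 times under every alternative run: 5 to 7 for fresh TI against fresh TII, 7 to 10 for cultured against fresh TII, and 9 to 12 for fresh TI against cultured TII. The filters on dim probe sets left 9 or 10 of the 12 member probe sets, without S100a8 and S100a9. With these filters 5 were called for fresh TI against fresh TII. Over all probe sets, leaving out those dimmer than the median gave 2671 calls (against 4783) for fresh TI against fresh TII and 2993 (against 5235) for fresh TI against cultured TII, since fewer were tested. Of single differences under the alternatives other than leaving out an array, 369 were unchanged in direction and call, 11 lost and 3 gained a call, and 7 changed sign. With an array left out the counts were 376, 13, 2 and 5.

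The sign changes were of differences that were not called. For fresh TI against fresh TII, S100b on S53527mRNA_s_at was -0.008 with quantile normalization and -0.002 with matched standard deviations, S100a1 on U26356mRNA_s_at was 0.011 with quantile normalization, and S100a1 on rc_AI228548_g_at was -0.026 with median centring and -0.003 to 0.071 with an array left out. For cultured against fresh TII, S100a9 was 0.006 with quantile normalization, 0.011 with matched standard deviations, 0.050 with array weights, and -0.105 to 0.043 with an array left out. The cause was not tested. S100a10 in fresh TI against cultured TII lost its call with quantile normalization (-0.146), matched standard deviations (-0.308) and array weights (-0.384), and S100b on S53527mRNA_s_at lost its own with quantile normalization (0.167), median centring (0.207) and matched standard deviations (0.172).

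Scaling moved the median difference of fresh TI minus fresh TII over all probe sets between 0.04 and 0.12 log2 units. Whether replicate numbers pair the arrays is unknown. Same-number correlations of deviations were -0.20 to 0.28 over 10 pairs, against -0.27 to 0.23 over 30 others, too few to show that pairing is absent. With a replicate block, 7, 8 and 12 member probe sets were called and 4787, 2750 and 4754 of all. With 3 or 4 arrays a group, the number of arrays limits precision.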

Other observations

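One S100 relative outside the family list, S100a7l2, read 3.60 to 4.36 in fresh TI, 3.40 to 3.66 in cultured TII and 3.63 to 3.66 in fresh TII cells. Fresh TI minus fresh TII was 0.30 (limma adjusted p = 0.0729), and fresh TI minus cultured TII was 0.38 (adjusted p = 0.0348).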
